A study of Mus musculus with 163 samples.

Results

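Reactive oxygen species are a by-product of respiration, and a set of enzymes keeps them low in oocytes as in other cells. Here 10 antioxidant defense genes were followed through oocyte growth in culture and in vivo: the superoxide dismutases Sod1 and Sod2, catalase (Cat), the glutathione peroxidases Gpx1 and Gpx4, the peroxiredoxins Prdx1 and Prdx2, both subunits of the enzyme that starts glutathione synthesis (Gclc and Gclm) and thioredoxin reductase (Txnrd1). They were chosen by name, and their rows were found through the Entrez identifiers of the count table. Of the 10 genes, 9 had a row among the 21950 genes of the table, and Prdx1 was not analysed here. All 9 passed the filter on low values in each of the 11 comparisons made.

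Mouse oocytes were profiled singly by Smart-seq2, which amplifies the polyadenylated RNA of a single cell. They formed 7 groups by stage, growing (GROs) or fully grown (FGOs), and by source. iPSC GROs (23 oocytes) and iPSC FGOs (24) came from BVSC-iPSC, a single female induced pluripotent stem cell line made from tail-tip fibroblasts of an adult mouse and carrying Blimp1-Venus and Stella-ECFP reporters. These cells were turned into primordial germ cell-like cells (in vitro PGC differentiation, IVP), aggregated with somatic cells of E12.5 gonads from outbred Swiss Webster embryos into reconstituted ovaries, differentiated into oocytes (IVD) and grown in follicles (IVG). Gonad GROs (24) and gonad FGOs (24) came from reconstituted ovaries made of all cells of E12.5 gonads, and so skipped IVP. The 6 dpp FGOs (24) had IVG alone, since their follicles were taken from mice 6 days after birth (dpp, days post partum). In vivo GROs (24) and in vivo FGOs (20) grew in the ovary, and their strain and age are not given in the sources used here. The culture media of IVD and IVG held ascorbic acid and β-mercaptoethanol, which are themselves antioxidants, and iPSC-derived follicles stayed in IVG for longer than the others. Some iPSC-derived oocytes may stem from germ cells left in the gonadal somatic cells. Oocytes were stripped of follicle cells and zona before lysis.

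The labels name no animal, embryo or culture behind an oocyte, so each group counted as 1 sample, and no test or p-value is given. Levels are given as CPM, the reads of a gene scaled to 1e6 counted reads of the oocyte. A pooled CPM sums the reads of all oocytes of a group and carries an exact Poisson 95% interval that covers counting error only. The error of a level between oocytes is given as the range from the lowest to the highest oocyte. Differences are log2 ratios of pooled CPM after adding 0.5 CPM, and a gene was counted as past the size rule when it differed at least 2-fold. A CPM is a share of the oocyte's RNA, and oocytes gain volume as they grow. The paper reports spike-in RNA in the lysis buffer, but levels here were not scaled to it. A lower share and fewer RNA molecules are therefore not told apart here.

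Libraries held 2.17 to 13.7 M counted reads (M, units of 1e6), with a median of 6.93 M. All 12 oocyte markers checked (Gdf9, Bmp15, the Zp genes and others) were present in every group, with summed levels between 17677 and 61612 CPM in single oocytes. Several libraries stood apart from their group. In vivo GROs numbered 17 to 24 in the titles did not overlap in vivo GROs 1 to 16 at 838 of 12447 genes (6.73%), whereas the same split of the other 6 groups gave between 0 and 8 such genes. The labels give no batch, animal or date for these 8 oocytes, and what sets them apart was not tested. Results with in vivo GROs are therefore given with all 24 oocytes and against oocytes 1 to 16 and 17 to 24 separately, a choice made after the data were seen. Gonad FGO 19 held 92.2% of the variance of its group's first principal component. Oocyte 12 of the 6 dpp FGOs had 1627 CPM of granulosa markers (group medians lay between 49.5 and 128 CPM) and 832 CPM of theca and stroma markers. In vivo FGOs 16 and 19 had 346 and 412 CPM of granulosa markers. Gonad FGO 5 and 22 had the lowest totals of their group. The oocytes called doubted below are in vivo FGOs 7, 16 and 19, gonad FGOs 5 and 22 and 6 dpp FGO 12. Gonad FGO 19 is not among them. In vivo FGO 7 had the lowest score of all FGOs on the genes that differ between the stages in vivo. That score is the mean log2(CPM + 1) of 1373 genes that were higher by 2-fold or more after growth in vivo minus that of 1735 genes that were lower by as much, members left out. Its median was -1.14 in iPSC, -0.78 in gonad and -1.76 in in vivo GROs. Among FGOs it was 0.84 in iPSC, 0.91 in gonad, 0.93 in 6 dpp and 1.43 in in vivo FGOs. The genes were chosen on the in vivo oocytes, which favours a wide gap between in vivo GROs and in vivo FGOs. Stage of growth and source were not separated in the GRO or FGO comparisons. The paper reports that both cultured GRO groups held larger oocytes than the in vivo GROs, and oocyte size was not used here.

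Superoxide dismutases turn superoxide into hydrogen peroxide, Sod1 with copper and zinc in the cytosol and Sod2 with manganese in mitochondria. Catalase breaks hydrogen peroxide down in peroxisomes, glutathione peroxidases do so with glutathione as the electron donor, and peroxiredoxins with thioredoxin. Thioredoxin reductase and glutathione reductase restore these donors with NADPH. Glutathione is made from glutamate, cysteine and glycine, and glutamate-cysteine ligase, whose catalytic subunit is Gclc and whose modifier subunit is Gclm, carries out the rate-limiting step. Oocytes are known for a large glutathione store, which after fertilisation helps to unpack the sperm nucleus. Many of these genes are known targets of NRF2 (gene Nfe2l2), which is held back by KEAP1 and binds the antioxidant response element together with small MAF proteins.

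The element's core letters, TGACNNNGC on either strand, were searched in RefSeq promoter windows of 300 bases (250 before to 50 after a transcript start, GRCm38.p6). Of the 9 measured genes 8 had a window, and Gclc had none. The letters were present in the windows of 3 of the 8 genes, Gclm, Sod1 and Txnrd1, against 14.0% of all 27025 genes with a window. Counted by windows, they were in 3 of the 13 windows of these genes and in 12.4% of all 32851 windows, and a gene with several windows has more chances of a match. The AP-1 letters TGAGTCA, which can overlap the first motif on the opposite strand, were in 5.95% of all genes and in none of the 8. The stretches before the start are shown for the 3 genes with the motif, and for Cat, which has none and had the largest ratio of cultured to in vivo oocytes with all 24 in vivo GROs. Bases under an annotated exon were left off. Capitals mark the motif, which lay on the opposite strand in all 3 and therefore reads as its reverse complement: TGACGGTGC in Gclm, TGACCACGC in Sod1 and TGACAAAGC in Txnrd1. In Gclm it began 134 bases before the transcript start of the window (122245557) and 64 bases before the first base of the annotated gene. In Sod1 it began 56 bases before the start of both, and in Txnrd1 92 bases before the transcript start of that window (82859206), which lies within the annotated gene.
Gclm, chr3:122245307-122245486, + strand: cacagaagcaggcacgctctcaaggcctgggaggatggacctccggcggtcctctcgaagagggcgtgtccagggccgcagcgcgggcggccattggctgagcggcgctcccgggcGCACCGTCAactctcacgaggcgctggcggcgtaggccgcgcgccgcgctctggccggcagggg
Sod1, chr16:90220512-90220753, + strand: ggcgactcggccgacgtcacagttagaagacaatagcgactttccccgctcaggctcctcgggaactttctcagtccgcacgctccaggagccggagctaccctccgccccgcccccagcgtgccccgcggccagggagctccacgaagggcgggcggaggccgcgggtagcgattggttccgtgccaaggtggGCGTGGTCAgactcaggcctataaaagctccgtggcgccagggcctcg
Txnrd1, second of its 3 windows, chr10:82859009-82859178, + strand: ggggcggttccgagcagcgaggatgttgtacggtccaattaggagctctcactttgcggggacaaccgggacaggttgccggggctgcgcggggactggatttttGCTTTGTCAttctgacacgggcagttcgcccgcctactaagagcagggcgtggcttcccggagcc
Cat, chr2:103485161-103485403, − strand: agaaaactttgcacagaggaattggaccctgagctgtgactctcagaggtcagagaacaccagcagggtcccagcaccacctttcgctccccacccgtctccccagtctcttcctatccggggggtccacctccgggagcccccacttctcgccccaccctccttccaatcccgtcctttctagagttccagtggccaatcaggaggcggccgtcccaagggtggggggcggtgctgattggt
A match of letters describes the sequence only, and no binding was measured.

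In GRCm38.p6 (RefSeq) the genes lie at chr16:90220762-90226333 (Sod1), chr17:13007839-13018119 (Sod2), chr2:103453904-103485153 (Cat), chr9:108339080-108340342 (Gpx1), chr10:80047166-80056439 (Gpx4), chr8:84969622-84974811 (Prdx2), chr9:77754535-77794489 (Gclc), chr3:122245487-122267215 (Gclm) and chr10:82833951-82897724 (Txnrd1). The counts cover their exons. Per exonic length (pooled RPKM, the scale on which different genes can be compared), Sod1 had the highest level of the 9 genes in every group, between 689 RPKM in in vivo FGOs and 1028 RPKM in iPSC FGOs. Prdx2 came next, between 358 and 482 RPKM. Gpx1 followed in the 3 GRO groups, at 78.3 to 90.3 RPKM, and Txnrd1 (34.7 to 44.3 RPKM) in the 4 FGO groups, where Gpx1 was at 25.9 to 30.6 RPKM. Sod2 (23.3 to 30.2 RPKM), Gclm (8.74 to 21.0 RPKM) and Gpx4 (7.59 to 13.8 RPKM) were in the middle. Gclc (0.627 to 2.23 RPKM) and Cat (0.141 to 1.09 RPKM) were lowest in every group. The table's length for Txnrd1 was 444 bases, a fraction of its longest annotated transcript of 3622 bases, so its rank rests on a small part of the gene. The length used was also below the longest transcript for Sod1 (848 against 3970 bases) and Gclm (2352 against 5589 bases). The same held for Sod2 (4024 against 5861 bases) and Prdx2 (1084 against 1612 bases). It was above the longest transcript for Cat, Gpx1, Gpx4 and Gclc.

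**Figure D1:**
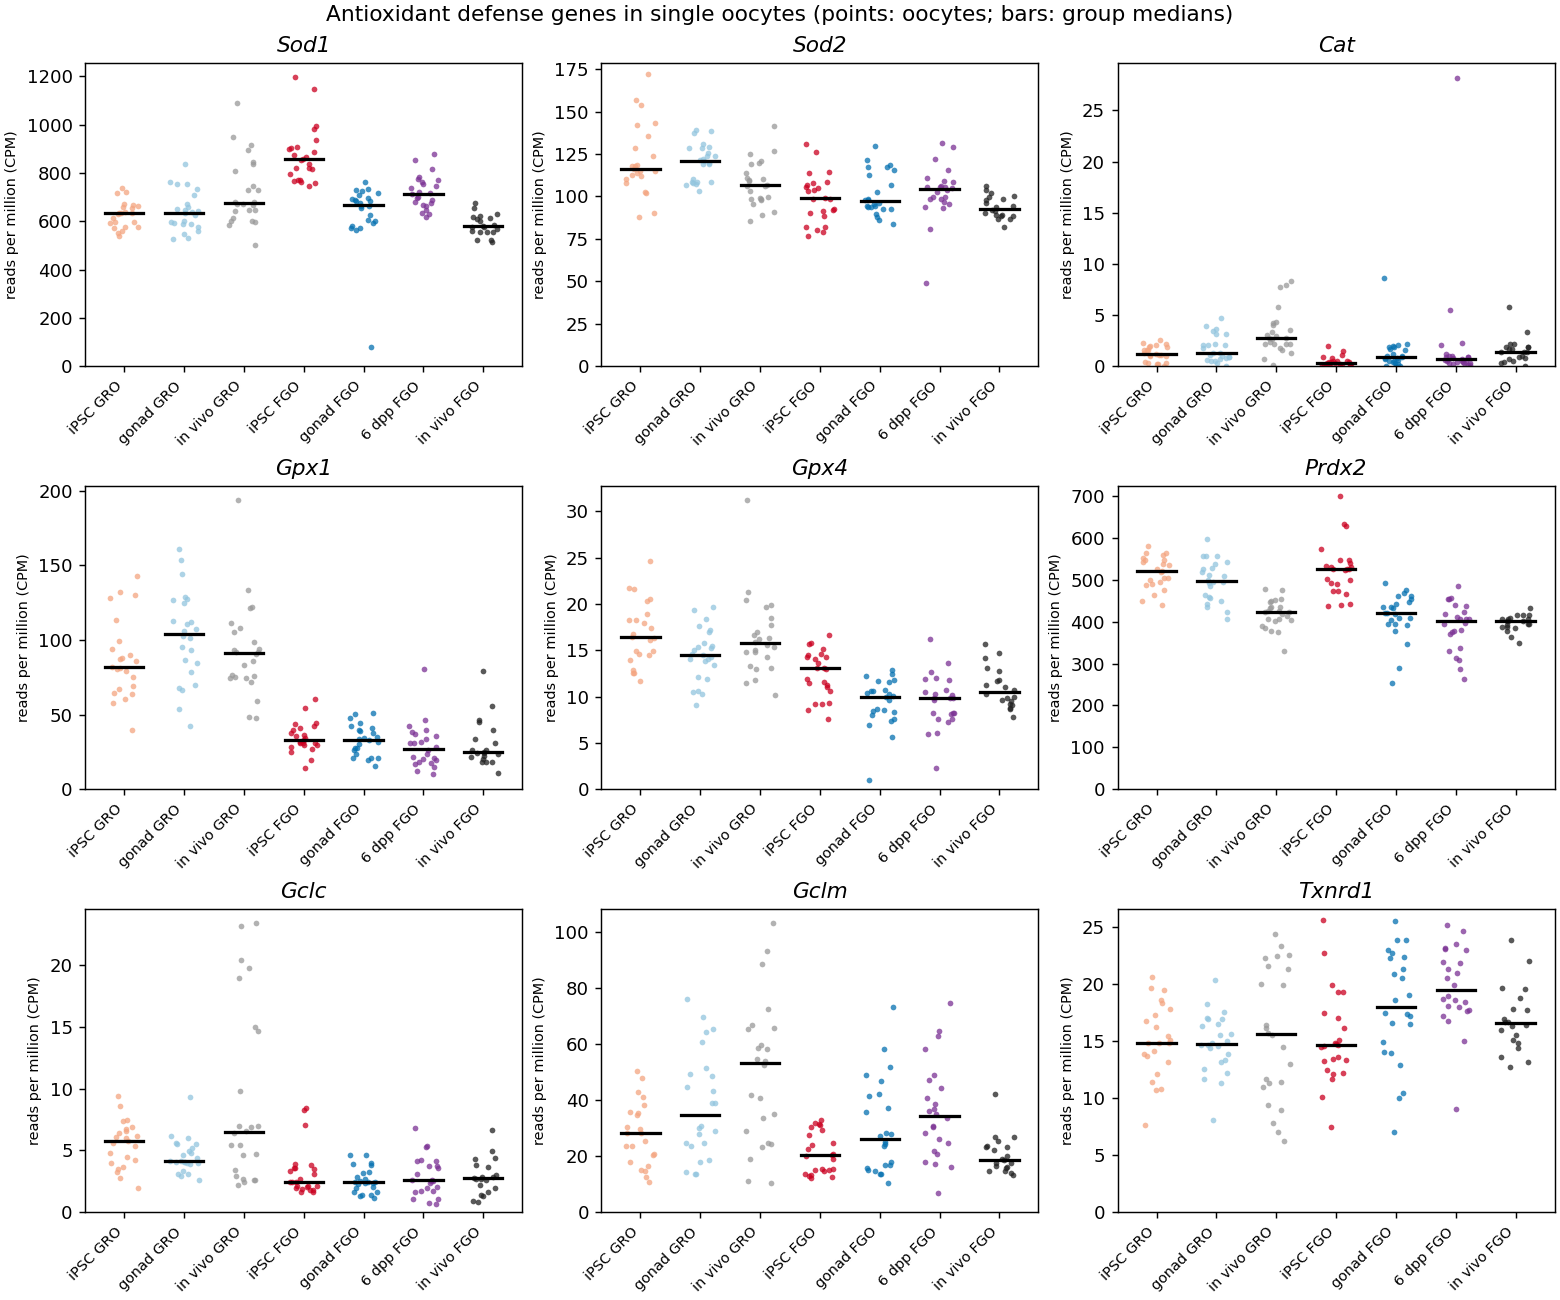
CPM of the 9 measured genes in each oocyte (points, spread sideways for visibility) by group, with the median of each group as a bar and a linear axis from 0 for every gene. iPSC FGOs lie above in vivo FGOs for Sod1 and Prdx2, all 3 FGO groups from culture and the in vivo FGOs lie low for Gpx1, and 8 in vivo GROs lie above all other in vivo GROs for Gclc.

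Sod1 was 1 of 2 genes, with Prdx2, in which every iPSC FGO lay above every in vivo FGO. The level ran from 746 to 1199 CPM in iPSC FGOs, with a median of 856 CPM. In vivo FGOs ran from 516 to 676 CPM, with a median of 578 CPM. All 24 iPSC FGOs were thus above the highest in vivo FGO, and the log2 ratio was 0.58 (pooled 872 CPM, interval 868 to 877, against 584 CPM, 580 to 588). Of all 12972 genes tested in this comparison, 1.28% had every iPSC FGO above every in vivo FGO. The medians of the other FGO groups lay between these, at 669 CPM in gonad FGOs (79.2 to 762 CPM) and 715 CPM in 6 dpp FGOs (619 to 878 CPM). The lowest value, 79.2 CPM, was that of gonad FGO 19, and without this oocyte the gonad FGOs began at 564 CPM. The log2 ratio to in vivo FGOs was 0.12 for gonad FGOs and 0.30 for 6 dpp FGOs, of which 11 of 24 and 17 of 24 oocytes were above the highest in vivo FGO.

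In GROs, the ranges of Sod1 overlapped between the sources. iPSC GROs ran from 538 to 739 CPM (median 635 CPM), gonad GROs from 528 to 835 CPM (median 636 CPM) and in vivo GROs from 501 to 1089 CPM (median 676 CPM). The log2 ratio to in vivo GROs was -0.19 for iPSC GROs and -0.18 for gonad GROs. The ratios were -0.05 and -0.04 against in vivo GROs 1 to 16 (pooled 655 CPM), and -0.44 and -0.43 against 17 to 24 (pooled 858 CPM). From GRO to FGO, Sod1 was lower in vivo by -0.31 on the log2 scale and higher in iPSC-derived oocytes by 0.46, while gonad-derived oocytes differed by -0.00. Every iPSC FGO was above every iPSC GRO, which was so for 2.39% of the 13115 genes tested there. The in vivo difference was -0.16 against in vivo GROs 1 to 16 and -0.55 against 17 to 24. The 2 stages of a source share no oocytes, but the in vivo value uses the in vivo FGOs that also serve the culture comparison.

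The mitochondrial enzyme Sod2 varied least between groups of the 9 genes by pooled CPM. Its medians ranked from gonad GROs (121 CPM) and iPSC GROs (116 CPM) through in vivo GROs (107 CPM), 6 dpp FGOs (104 CPM), iPSC FGOs (98.9 CPM) and gonad FGOs (97.2 CPM) to in vivo FGOs (92.9 CPM). Every group overlapped every other group, so neighbours in this order did not differ beyond the spread between oocytes. The 5 log2 ratios of cultured to in vivo oocytes lay between 0.07 and 0.18, all above 0. The 3 growth ratios lay between -0.30 and -0.20. In vivo GROs 1 to 16 and 17 to 24 both pooled at 108 CPM, so these values were alike against either. Of the stretches of 75 bases in annotated Sod2 transcripts, 16.2% also occur in other genes, and reads from there may have been lost from the count.

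With all 24 in vivo GROs, Cat was the only one of the 9 genes past 2-fold in a comparison of cultured with in vivo oocytes, and its counts were small. Against in vivo GROs 17 to 24 alone, 3 genes were at least 2-fold lower in iPSC GROs (Cat, Gclc and Gclm, 11% of all genes) and 2 in gonad GROs (Cat and Gclc, 9.54%). In vivo GROs ran from 0.144 to 8.34 CPM with a median of 2.75 CPM, and iPSC GROs from 0 to 2.59 CPM with a median of 1.21 CPM. All 23 iPSC GROs were below the in vivo median, but the groups overlapped. Pooled levels were 1.21 CPM (1.05 to 1.39) and 3.34 CPM (3.06 to 3.63), a log2 ratio of -1.17. In this comparison 4.38% of the 13136 genes tested were at least 2-fold lower, and 9.99% were past 2-fold either way. The ratio to in vivo GROs 1 to 16 was -0.94, short of 2-fold, with 13 of 23 iPSC GROs below the lowest of these 16 oocytes, and 2.81% of genes were at least 2-fold lower there. Against 17 to 24 it was -1.53. Gonad GROs (0 to 4.75 CPM, median 1.29 CPM) had a ratio of -0.77 to all in vivo GROs, of -0.55 to oocytes 1 to 16 and of -1.14 to 17 to 24. None of the 9 genes was past 2-fold in gonad against in vivo GROs, where 7.04% of genes were, or in iPSC against gonad GROs, where 3.83% were.

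Among FGOs, Cat was again lowest in iPSC-derived oocytes. iPSC FGOs ran from 0 to 1.92 CPM with a median of 0.270 CPM, about 2 reads per oocyte, and 6 of 24 had 0 reads. In vivo FGOs ran from 0 to 5.81 CPM with a median of 1.41 CPM, and 22 of the 24 iPSC FGOs were below that median. Pooled levels were 0.433 CPM (0.339 to 0.546) and 1.55 CPM (1.36 to 1.77), a log2 ratio of -1.14, in a comparison where 10.3% of genes were at least 2-fold lower and 14.5% past 2-fold either way. In vivo FGO 16 had the highest value of its group and 346 CPM of granulosa markers, and without it the ratio was -0.98. It was -0.88 without this oocyte and in vivo FGOs 7 and 19, so that the 2-fold call was lost in both cases. Gonad FGOs ran from 0 to 8.57 CPM with a median of 0.848 CPM and a ratio to in vivo FGOs of -0.17. It was -0.48 without gonad FGO 18, which held the highest value, -0.01 without in vivo FGO 16 and 0.09 without the doubted oocytes (in vivo FGOs 7, 16 and 19 and gonad FGOs 5 and 22), so its sign turned. Gonad FGO 18 also had the highest granulosa marker sum of its group, at 155 CPM, where the group median was 116 CPM. The 6 dpp FGOs ran from 0.143 to 28.2 CPM with a median of 0.659 CPM. Their highest value was that of oocyte 12, which held the most granulosa and theca marker reads of all oocytes. The ratio of 6 dpp to in vivo FGOs was 0.29 with this oocyte and -0.56 without it, and the pooled level moved from 2.01 to 0.896 CPM. Still included there was 6 dpp FGO 10, with 5.44 CPM of Cat and 373 CPM of granulosa markers. A high granulosa sum did not always go with high Cat. In vivo FGO 19 had 412 CPM of these markers and 1.41 CPM of Cat, near its group median. Of the 6 dpp FGOs, oocytes 5, 7 and 17 had sums of 148 to 153 CPM and Cat at 0.465, 0.906 and 0.174 CPM. Growth ratios of Cat were -0.90 in vivo, -0.87 in iPSC-derived and -0.30 in gonad-derived oocytes. The added 0.5 CPM is about as large as the level in iPSC FGOs and makes the Cat ratios smaller. Without it, the counting intervals of the log2 ratio were -1.34 to -0.88 for growth in vivo, -1.89 to -1.09 for growth of iPSC-derived oocytes, -1.71 to -1.23 for iPSC against in vivo GROs and -2.24 to -1.45 for iPSC against in vivo FGOs. With the 0.5 CPM, the growth ratio in vivo was -1.06 without in vivo FGO 16 and -1.16 without in vivo FGOs 7, 16 and 19, past 2-fold in both cases. It was -0.68 against in vivo GROs 1 to 16 and -1.27 against 17 to 24, and the gonad value was -0.61 without gonad FGO 18. The part of somatic cell RNA in the Cat values was not tested.

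Gpx1, the abundant cytosolic glutathione peroxidase, separated the stages rather than the sources. Medians were 104 CPM in gonad GROs (42.4 to 161 CPM), 91.0 CPM in in vivo GROs (47.9 to 194 CPM) and 81.6 CPM in iPSC GROs (39.4 to 143 CPM). They were 33.3 CPM in gonad FGOs (15.7 to 51.0 CPM), 32.7 CPM in iPSC FGOs (14.1 to 60.4 CPM), 27.0 CPM in 6 dpp FGOs (10.4 to 80.8 CPM) and 24.8 CPM in in vivo FGOs (10.7 to 79.2 CPM). The highest FGO values were those of 6 dpp FGO 12 and in vivo FGO 7. Gpx1 was lower in FGOs than in GROs by -1.57 in vivo, -1.34 in iPSC-derived and -1.57 in gonad-derived oocytes on the log2 scale. In these comparisons 13.2%, 15.3% and 9.98% of all genes were at least 2-fold lower, and 23.7%, 22% and 15.8% were past 2-fold either way. Every FGO of each source was below the GRO median of that source, and 18 of 20, 17 of 24 and 19 of 24 were below the lowest GRO. The in vivo value was -1.40 against in vivo GROs 1 to 16 and -1.87 against 17 to 24. The culture comparisons at either stage gave Gpx1 ratios between -0.07 and 0.17, which lay within the spread between oocytes. For iPSC and gonad GROs they were 0.11 and 0.32 against in vivo GROs 1 to 16, and -0.36 and -0.16 against 17 to 24, so the sign turned with the oocytes used. Without in vivo FGOs 7, 16 and 19, gonad FGO 5 and 22 and 6 dpp FGO 12, the ratio to in vivo FGOs was 0.44 for both iPSC and gonad FGOs. For 6 dpp FGOs the ratio turned from -0.07 to 0.09 in that setting, and to 0.05 without in vivo FGO 7 alone.

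Gpx4 reduces lipid hydroperoxides in membranes and protects cells from ferroptosis. Its medians ranked iPSC GROs (16.4 CPM), in vivo GROs (15.8 CPM), gonad GROs (14.5 CPM), iPSC FGOs (13.0 CPM), in vivo FGOs, gonad FGOs (9.98 CPM) and 6 dpp FGOs (9.80 CPM). In vivo FGOs ran from 7.76 to 15.7 CPM, and all pairs of groups overlapped. Growth ratios were -0.55 in vivo, -0.44 in iPSC-derived and -0.57 in gonad-derived oocytes. The in vivo value was -0.43 against GROs 1 to 16 (pooled 15.0 CPM) and -0.77 against 17 to 24 (pooled 19.1 CPM). Ratios of iPSC and gonad GROs to in vivo GROs were 0.06 and -0.18 with all 24, 0.18 and -0.06 against 1 to 16, and -0.15 and -0.39 against 17 to 24. Of the iPSC FGOs, 13 of 24 were above the highest gonad FGO, with a ratio of 0.36. The lowest value was 1.01 CPM, again in gonad FGO 19. Of the 75-base stretches of Gpx4 transcripts 29.8% also occur in other genes, foremost the pseudogene Gpx4-ps2, so its count is uncertain.

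Prdx2, a cytosolic peroxiredoxin, was higher in iPSC-derived oocytes at both stages. iPSC GROs ran from 440 to 582 CPM (median 521 CPM) and in vivo GROs from 330 to 477 CPM (median 423 CPM). All 23 iPSC GROs were above the in vivo median and 19 were above the highest in vivo GRO, with a log2 ratio of 0.31. Gonad GROs (405 to 598 CPM, median 498 CPM) had a ratio of 0.24, with 16 of 24 above the highest in vivo GRO. The values for iPSC and gonad GROs were 0.32 and 0.25 against oocytes 1 to 16, and 0.28 and 0.21 against 17 to 24. iPSC FGOs ran from 438 to 702 CPM (median 526 CPM) and in vivo FGOs from 350 to 433 CPM (median 401 CPM). The groups did not overlap, and the ratio was 0.40. Gonad FGOs (254 to 493 CPM, median 421 CPM) and 6 dpp FGOs (263 to 486 CPM, median 401 CPM) had ratios of 0.07 and -0.03, and both overlapped the in vivo FGOs. Between the stages, Prdx2 differed by -0.08 in vivo and 0.01 in iPSC-derived oocytes. In gonad-derived oocytes it differed by -0.24, and all 24 gonad FGOs were below the median gonad GRO. Exons of Prdx2 overlap those of Junb (173 bases) and Rnaseh2a (177 bases) on the opposite strand, from which reads could not be told apart without strand information.

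**Figure D2:**
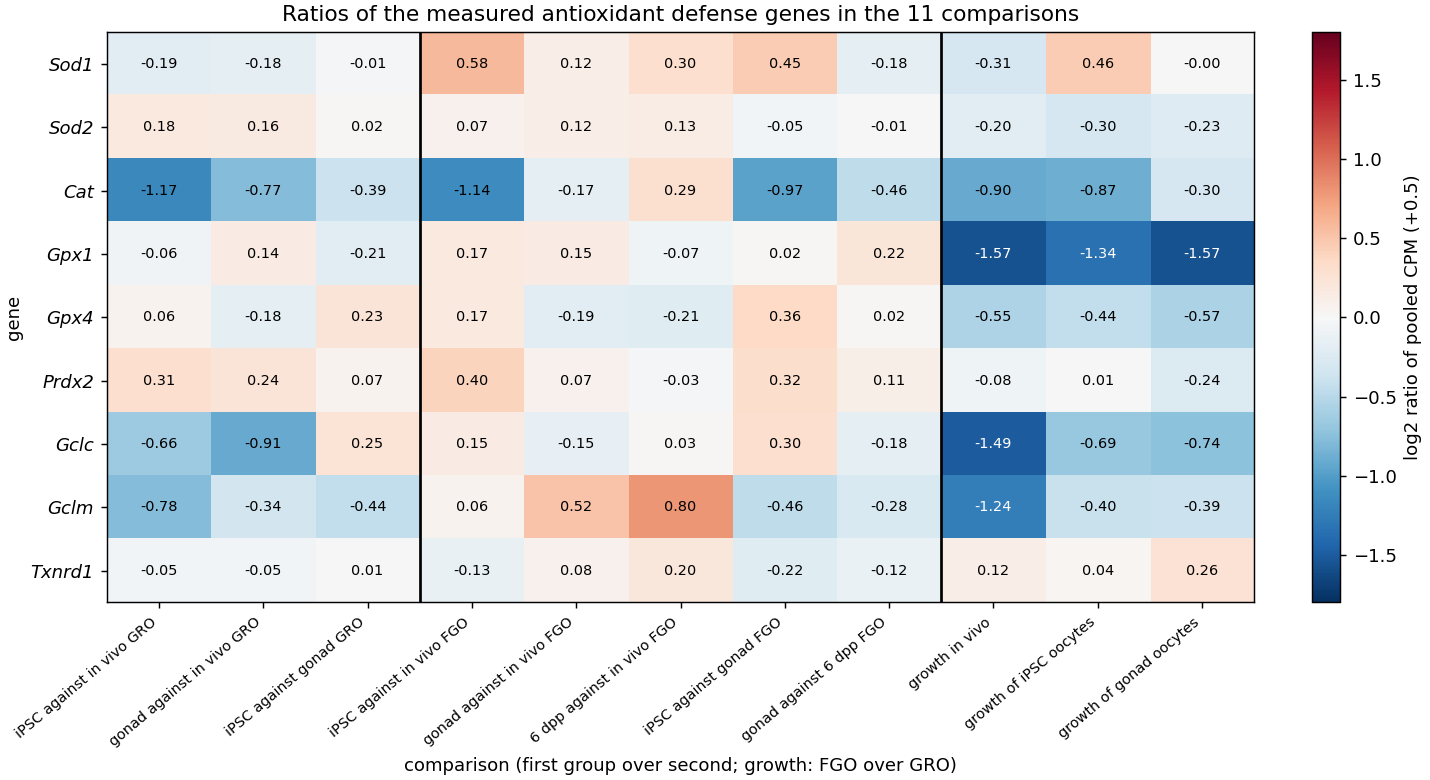
Log2 ratios of pooled CPM (0.5 CPM added) of the 9 measured genes (rows) in the 11 comparisons (columns), in colour and as numbers; black lines separate the GRO, FGO and growth comparisons. Cat is the gene past 2-fold against in vivo oocytes, at -1.17 and -1.14 for iPSC GROs and iPSC FGOs, and Gpx1 is past 2-fold in all 3 growth comparisons; in vivo GROs enter here with all 24 oocytes.

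Gclc, the catalytic subunit of glutamate-cysteine ligase, split the in vivo GROs. In vivo GROs 17 to 24 ran from 9.83 to 23.4 CPM with a median of 19.4 CPM. In vivo GROs 1 to 16 ran from 2.24 to 6.98 CPM with a median of 4.65 CPM, so the 2 sets of oocytes did not overlap. The 8 highest Gclc values of all oocytes were those of these 8 oocytes. iPSC GROs ran from 1.95 to 9.38 CPM (median 5.76 CPM) and gonad GROs from 2.59 to 9.31 CPM (median 4.14 CPM). Against all in vivo GROs the log2 ratios were -0.66 and -0.91. They were 0.25 and -0.00 against oocytes 1 to 16, and -1.61 and -1.87 against 17 to 24, with every cultured GRO below every one of these 8 oocytes. The same held for 6.89% of genes in iPSC GROs and 6.21% in gonad GROs. The lower Gclc of cultured GROs was therefore seen against 17 to 24 and not against 1 to 16.

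In FGOs the medians of Gclc were close, at 2.74 CPM in vivo (0.826 to 6.68 CPM), 2.60 CPM in 6 dpp FGOs, 2.46 CPM in iPSC FGOs and 2.43 CPM in gonad FGOs, at a median of 17.5 to 20 reads per oocyte. Growth ratios were -1.49 in vivo, -0.69 in iPSC-derived and -0.74 in gonad-derived oocytes. The in vivo value was -0.58 against in vivo GROs 1 to 16 and -2.45 against 17 to 24. Without the latter the in vivo ratio lay near those of the cultured oocytes, and Gclc was no longer past 2-fold.

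Gclm is the modifier subunit. In vivo GROs ran from 10.4 to 103 CPM with a median of 53.3 CPM, gonad GROs from 13.6 to 76.0 CPM with a median of 34.9 CPM, and iPSC GROs from 10.8 to 50.5 CPM with a median of 28.2 CPM. The 6 dpp FGOs ran from 6.81 to 74.7 CPM (median 34.4 CPM), gonad FGOs from 10.3 to 73.1 CPM (median 26.2 CPM), iPSC FGOs from 12.3 to 33.1 CPM (median 20.3 CPM) and in vivo FGOs from 13.2 to 42.0 CPM (median 18.8 CPM). The coefficient of variation within a group was 32.3% to 54.7%, whereas counting at the mean number of reads gives 5.49% to 8.21%. The latter leaves out noise of the amplification, which was not measured here. iPSC GROs had a ratio of -0.78 to in vivo GROs, and all 23 were below the in vivo median. The ratio was -0.40 against oocytes 1 to 16 (pooled 37.8 CPM) and -1.33 against 17 to 24 (pooled 72.5 CPM). For gonad GROs these 3 values were -0.34, 0.04 and -0.89. Annotated exons of Gclm overlap those of Gm17494 on the opposite strand (296 bases) and of Gm6061 on the same strand (244 bases). Reads from these stretches may not be told apart.

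Among FGOs, Gclm had the largest ratio of the 9 genes in 6 dpp against in vivo FGOs, 0.80, with 20 of 24 oocytes above the in vivo median and 7 above the highest in vivo FGO. None of the 9 genes was past 2-fold there, against 4.38% of all genes. In gonad against in vivo FGOs, where again no gene of the 9 and 5.58% of all genes were past 2-fold, Gclm also had the largest ratio, 0.52. In iPSC FGOs the ratio was 0.06. The growth ratio was -1.24 in vivo, with all 20 in vivo FGOs below the GRO median, and -0.40 and -0.39 in iPSC- and gonad-derived oocytes. In vivo it was -0.86 against GROs 1 to 16 and -1.79 against 17 to 24. In total 3 of the 9 genes, Gpx1, Gclc and Gclm, were at least 2-fold lower in in vivo FGOs with all GROs, as were 13.2% of all genes. Gpx1 alone was so against in vivo GROs 1 to 16 (11.5% of all genes), and these 3 and Cat against 17 to 24 (18.1%).

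The oocytes with much Gclm were also those with much Lamp1, which encodes a lysosomal membrane protein. Among 8305 genes of at least 10 CPM in the median oocyte of some group, Lamp1 had the pattern most like Gclm over the oocytes of all groups (Pearson r = 0.93 of log2 CPM plus 1). Within the groups r lay between 0.91 and 0.96, and it was 0.98 in in vivo GROs 1 to 16 and 0.94 in 17 to 24. Median Lamp1 ran from 102 CPM in iPSC FGOs to 369 CPM in in vivo GROs. Zfand5 (r = 0.88) and Agfg1 (r = 0.85) came next. These are correlations across oocytes that share libraries and were picked as the highest of many, so they are descriptions. Between Gclc and Gclm r was 0.05 in iPSC GROs, 0.01 in gonad GROs, -0.04 in iPSC FGOs, 0.34 in gonad FGOs, 0.22 in 6 dpp FGOs and -0.12 in in vivo FGOs. It was 0.34 in in vivo GROs 1 to 16 and 0.62 in 17 to 24.

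**Figure D3:**
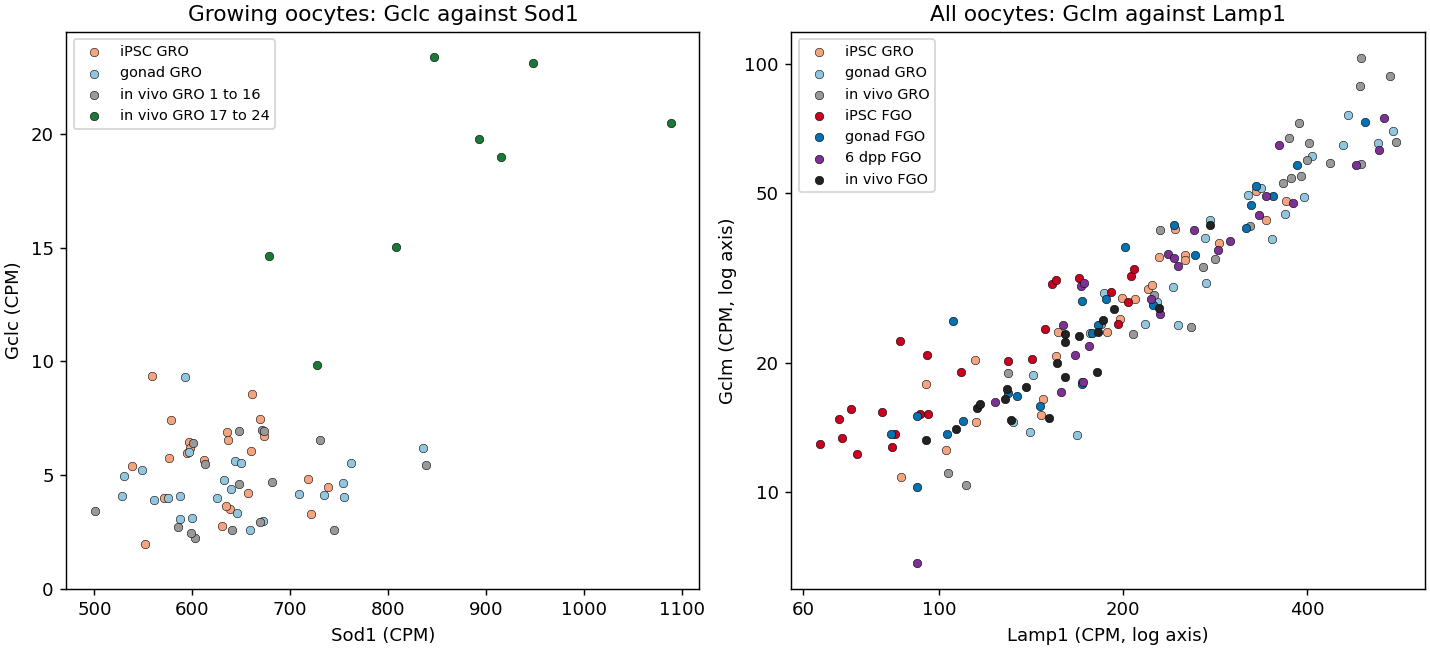
Left, Gclc against Sod1 (CPM, linear axes) in each GRO, with in vivo GROs 1 to 16 (grey) and 17 to 24 (green) apart; right, Gclm against Lamp1 (CPM, log axes) in every oocyte by group. In vivo GROs 17 to 24 have 9.83 CPM of Gclc or more and the other GROs 9.38 CPM or less, and Gclm and Lamp1 lie along a common line in all 7 groups.

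For Gclc the nearest patterns were those of Hmga2, Rcc2 and Cab39, each with r = 0.73. Their pooled levels were highest in in vivo GROs too, at 44.0, 170 and 65.8 CPM. In the same order, r was 0.07, 0.17 and 0.40 within in vivo GROs 1 to 16, and 0.60, 0.74 and 0.72 within the 8 oocytes 17 to 24. Within the other groups r was highest in in vivo FGOs, at 0.54, 0.63 and 0.52. The lowest values there were -0.22 for Hmga2 (iPSC FGOs), 0.02 for Rcc2 (gonad GROs) and -0.14 for Cab39 (6 dpp FGOs). For Cat the nearest patterns were Ctsl (r = 0.67), Malat1 (r = 0.63) and Maged1 (r = 0.60) among 8306 genes. Ctsl encodes the lysosomal protease cathepsin L. Within in vivo GROs 1 to 16, r with Cat was 0.08 for Ctsl, 0.41 for Malat1 and 0.38 for Maged1, and within 17 to 24 it was 0.60, 0.23 and 0.77. Within the other groups the lowest values were 0.13 (Ctsl, gonad GROs), -0.23 (Malat1, iPSC GROs) and 0.19 (Maged1, gonad FGOs). The highest were those of 6 dpp FGOs, at 0.83, 0.82 and 0.88. Without the 2 farthest oocytes these fell to 0.39, 0.11 and 0.45.

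Txnrd1, which recycles cytosolic thioredoxin, had 2 levels among in vivo GROs that offset each other in the comparison with cultured GROs. Medians were 14.9 CPM in iPSC GROs, 14.8 CPM in gonad GROs and 15.6 CPM in in vivo GROs, and both ratios to in vivo GROs were -0.05. The in vivo GROs pooled at 18.7 CPM in oocytes 1 to 16 (11.4 to 24.4 CPM) and at 9.26 CPM in 17 to 24 (6.25 to 13.0 CPM). The direction was the reverse of that of Gclc and Gclm. The ratios of iPSC and gonad GROs were -0.30 and -0.31 against oocytes 1 to 16, and 0.67 and 0.66 against 17 to 24. FGO medians were 19.5 CPM in 6 dpp, 18.0 CPM in gonad, 16.6 CPM in in vivo and 14.6 CPM in iPSC FGOs. The ratio to in vivo FGOs was 0.20, 0.08 and -0.13 in that order, and all groups overlapped. Growth ratios were 0.12 in vivo, 0.04 in iPSC-derived and 0.26 in gonad-derived oocytes, and the in vivo value was -0.13 against GROs 1 to 16 and 0.84 against 17 to 24.

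Over the 9 genes the median log2 ratio of iPSC to in vivo GROs was -0.06, of gonad to in vivo GROs -0.18, of iPSC to in vivo FGOs 0.15, of gonad to in vivo FGOs 0.08 and of 6 dpp to in vivo FGOs 0.13. Over all genes tested these medians lay between -0.08 and -0.01. The GRO medians moved with the in vivo oocytes used: for iPSC GROs the median was 0.11 against in vivo GROs 1 to 16 and -0.36 against 17 to 24, and for gonad GROs it was -0.00 and -0.39, where all genes lay between -0.02 and -0.01. No member was past 2-fold in iPSC against gonad FGOs (6.21% of genes) or in gonad against 6 dpp FGOs (2.59%). The nearest was Cat at -0.97 in the former. It was -0.65 without gonad FGO 18 and -1.08, past 2-fold, without iPSC FGO 9. Without the added 0.5 CPM its counting interval was -2.02 to -1.22.

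A lower bar of 1.5-fold took in few further genes. It was passed by 3 of the 9 genes in iPSC against in vivo GROs (28.1% of all genes), 2 in gonad against in vivo GROs (22.8%) and 0 in iPSC against gonad GROs (12.9%). Among FGOs it was passed by 1 in iPSC against in vivo (34.4%), 0 in gonad against in vivo (19.1%), 1 in 6 dpp against in vivo (16.5%), 1 in iPSC against gonad (19.9%) and 0 in gonad against 6 dpp (8.82%). In growth it was passed by 4 in vivo (45.3%), 3 in iPSC-derived (42.8%) and 2 in gonad-derived oocytes (35.7%). Against in vivo GROs 1 to 16 alone, 1 gene (Cat) passed 1.5-fold in iPSC GROs (24.4% of all genes), 0 in gonad GROs (19.5%) and 3 in growth in vivo (43.3%). Against 17 to 24 these counts were 4 (37.3%), 4 (33%) and 6 (52.5%). With all in vivo GROs none of the 9 genes reached 4-fold in any of the 11 comparisons. The share of all genes that did was 1.26%, 0.704% and 0.576% in the 3 GRO comparisons, 2.07%, 0.555%, 0.363%, 0.714% and 0.432% in the 5 FGO comparisons and 5.02%, 4.74% and 2.75% in growth, in the same order. Gclc reached 4-fold in growth in vivo against GROs 17 to 24, where 6.81% of all genes did. No gene of the 9 did in growth against 1 to 16 (4.73%), in iPSC GROs against 1 to 16 (1.37%) or 17 to 24 (2.12%), or in gonad GROs against 1 to 16 (0.819%) or 17 to 24 (1.5%). All comparisons with in vivo oocytes of a stage share that control group, so they are not independent of each other.

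Beyond these genes, 75 genes of 9 lists around the same chemistry were read, of which 72 were in the table. In iPSC against in vivo GROs 3 of the 64 tested were at least 2-fold higher and 5 lower, beside 5.61% and 4.38% of all genes. The higher ones were Glrx2, a mitochondrial glutaredoxin, at 1.53 (13.6 against 4.39 CPM), Chac2, a glutathione-degrading enzyme, at 1.16 and Cth, which makes cysteine by transsulfuration, at 1.13. All 23 iPSC GROs were above the highest in vivo GRO for Glrx2, which was so for 0.982% of all genes. The lower ones included Gsta4, a glutathione transferase, at -1.66 (68.6 against 218 CPM), Akr1b8, an aldo-keto reductase, at -1.09 and Oxr1, an oxidation resistance gene, at -1.04. With a pseudocount of 2 CPM Akr1b8 and Oxr1 were both at -0.99, short of 2-fold. Single oocytes weighed on Akr1b8, whose medians were 3.03 and 21.7 CPM with a highest iPSC GRO of 62.0 CPM, and the ratio of medians was -2.65. With in vivo GROs 1 to 16 the counts were 2 higher and 2 lower (6.13% and 2.81% of all genes). Glrx2 was then at 1.65, Chac2 at 1.14, Gsta4 at -1.58, Cth at 0.99 and Oxr1 at -0.82, and Akr1b8 just missed 2-fold. With 17 to 24, 4 of 63 genes were higher and 7 lower (6.94% and 11% of all genes), with Glrx2 at 1.33, Chac2 at 1.19, Cth at 1.46, Oxr1 at -1.41 and Akr1b8 at -1.25, and Gsta4 at 68.6 against 241 CPM.

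In gonad against in vivo GROs 2 of 64 genes were at least 2-fold higher, Cth at 1.57 and the glutathione peroxidase Gpx6 at 1.17, and 3 were lower, among them Akr1b8 at -1.15 and Oxr1 at -1.02, where 4.3% and 2.75% of all genes were. With in vivo GROs 1 to 16 the counts were 2 and 2 (4.65% and 1.47% of all genes), with Cth at 1.43, Gpx6 at 1.15, Akr1b8 at -1.06 and Oxr1 at -0.80. With 17 to 24 they were 2 and 6 (5.31% and 9.54%), with Cth at 1.89, Akr1b8 at -1.32 and Oxr1 at -1.39, and Gpx6 at 134 against 57.8 CPM. Oxr1 was at -0.97 with all in vivo GROs and a pseudocount of 2 CPM.

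The gene for NRF2 itself had a lower pooled level in every cultured FGO group than in in vivo FGOs. The difference was past 2-fold in iPSC and gonad FGOs and smaller in 6 dpp FGOs. Nfe2l2 ran from 0.667 to 27.3 CPM in iPSC FGOs (median 12.2 CPM), from 5.07 to 30.3 CPM in gonad FGOs (median 15.2 CPM) and from 25.9 to 70.7 CPM in in vivo FGOs (median 44.4 CPM). The log2 ratios were -1.71 and -1.43, and 23 of 24 iPSC and 22 of 24 gonad FGOs were below the lowest in vivo FGO. In 6 dpp FGOs the pooled level was 31.8 CPM against 46.1 CPM in vivo. Pooled levels in GROs were 25.8 CPM in vivo, 30.4 CPM with iPSCs as source and 36.4 CPM with gonads. Its growth ratio was 0.82 in vivo (0.77 against GROs 1 to 16 and 0.93 against 17 to 24) but -1.12 and -1.09 in iPSC- and gonad-derived oocytes.

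In iPSC against in vivo FGOs 4 of 64 genes of the lists were at least 2-fold higher and 8 lower, beside 4.21% and 10.3% of all genes. All 24 iPSC FGOs were above the highest in vivo FGO for Glrx2 (median 10.6 against 3.59 CPM), at 1.71. Idh1, a cytosolic source of NADPH, was at 1.23, with 21 of 24 above. Sesn1, a stress-induced sestrin, was at 1.33, with 6 of 24 above and a highest value of 78.9 CPM. Its medians were 6.46 and 3.20 CPM, and their ratio of 0.91 was short of 2-fold. Besides Nfe2l2, Gpx6 was at -1.30 and Gsta4 at -1.17. Without the 6 doubted oocytes named above for Gpx1, 7 were higher and 4 lower, beside 5% and 8.57% of all genes in that setting. In gonad against in vivo FGOs 0 of 66 were higher and 3 lower (2.14% and 3.43% of all genes), or 1 and 1 without those oocytes (2.65% and 2.46%). In 6 dpp against in vivo FGOs 4 of 65 were higher and 1 lower (1.25% and 3.12% of all genes), or 2 and 1 without them (1.31% and 2.68%). The lower one was Cth, at -1.72 (median 6.37 against 25.9 CPM), with 21 of 24 oocytes below the lowest in vivo FGO.

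In growth in vivo 5 of 64 genes of the lists were at least 2-fold higher and 11 lower, where 10.4% and 13.2% of all genes were. Cth was at 1.74 and Akr1b8 at 1.41. Gsr, glutathione reductase, was at -1.72 (median 5.28 against 19.0 CPM) with 19 of 20 FGOs below the lowest GRO, Keap1, the inhibitor of NRF2, at -1.39 and Oxr1 at -1.38. With in vivo GROs 1 to 16 Cth was at 1.60, Gsr at -1.77, Keap1 at -1.40 and Oxr1 at -1.15, and 6 genes were higher and 12 lower (10.9% and 11.5% of all genes). With 17 to 24 they were 5 and 9 (12.4% and 18.1%), with Cth at 2.07, Akr1b8 at 1.25, Gsr at -1.62, Keap1 at -1.37 and Oxr1 at -1.74. Without the doubted oocytes 4 were higher and 16 lower, beside 10.5% and 16.1% of all genes in that setting.

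**Figure D4:**
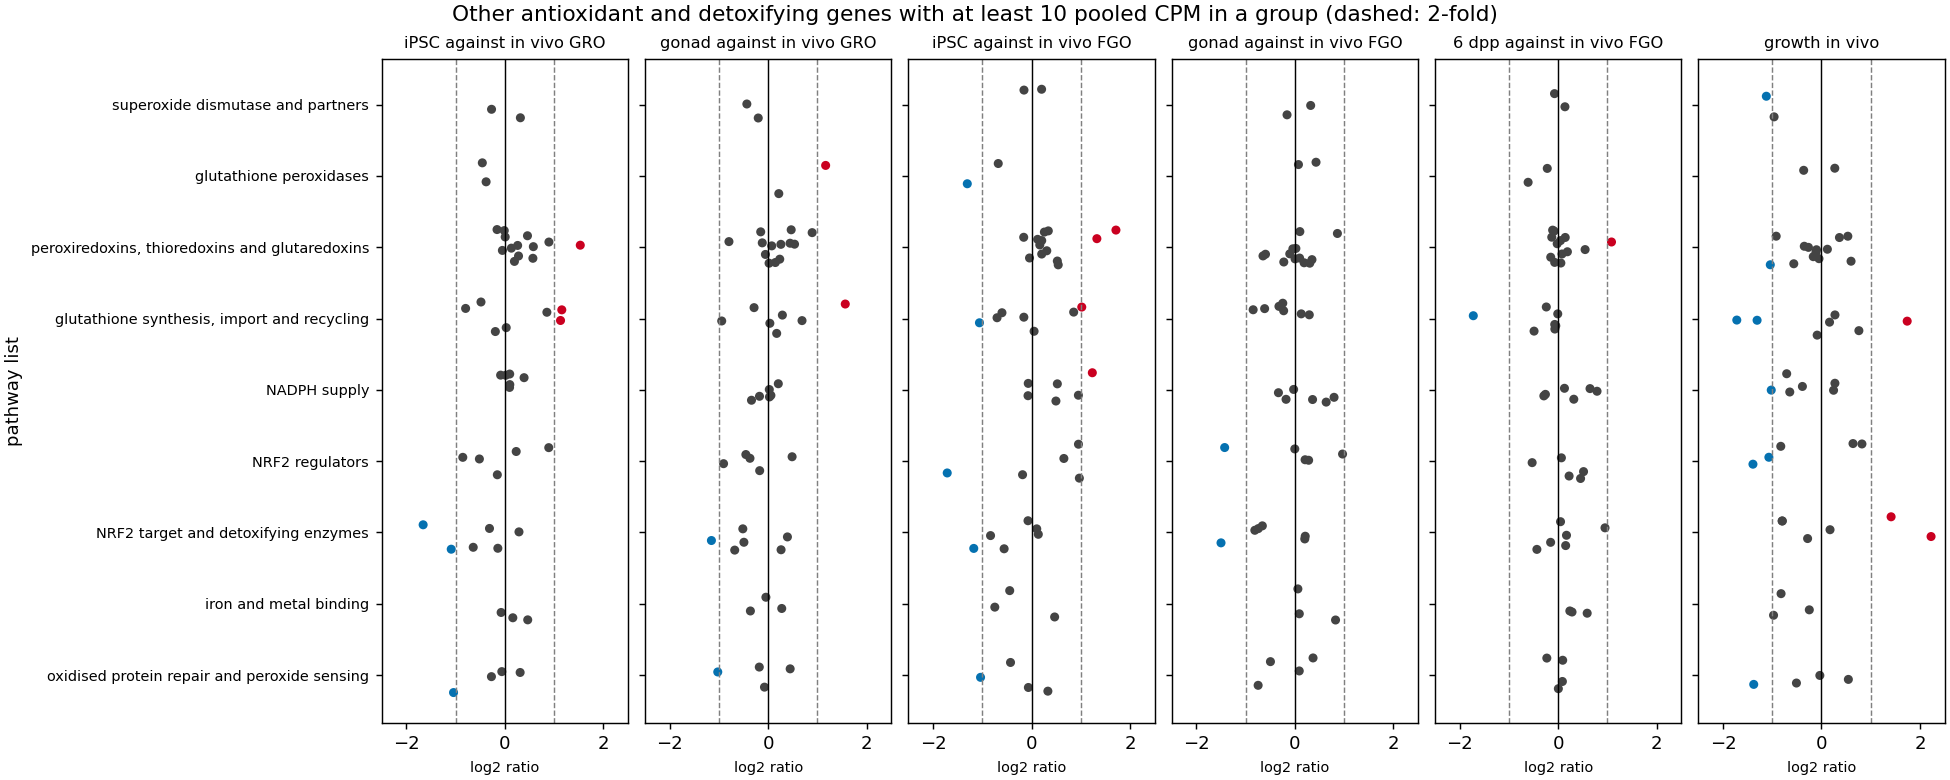
Log2 ratios of pooled CPM (horizontal axis) of the genes of the 9 further lists that reached 10 pooled CPM in a group (points), by list, in the 5 comparisons of cultured with in vivo oocytes and in growth in vivo; the height within a list has no meaning, dashed lines mark 2-fold, and red and blue points lie past it. Glrx2 is the rightmost of its list in iPSC GROs and iPSC FGOs, at 1.53 and 1.71, and Nfe2l2 the leftmost of the NRF2 regulators in iPSC and gonad FGOs, at -1.71 and -1.43.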

How the data were processed

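Unnormalized counts of reads per gene were deposited by the authors in 1 table with a column per oocyte, together with an exonic length (deposited, in bases) that served here for RPKM. Per the methods, single-end Smart-seq2 reads were aligned with STAR to GRCm38 (mm10) and spike-ins, reads with many placements were put at random, and uniquely mapped exonic reads were counted with QuasR for 1 randomly chosen transcript per gene. Multi-copy, overlapping and partly counted genes are thus uncertain. Here every oocyte column was used. Identifiers were matched to RefSeq symbols (21907 of 21950). CPM used column totals. Genes entered a comparison with CPM above 1 in at least 3 oocytes of both groups together. TMM (edgeR 4.0.16) and DESeq2 1.42.0 size factors were alternatives. Scripts ran in Python 3.11.15 and R 4.3.3 and were tested on simulated data. Members, lists and the size rule were chosen with earlier results of these data known. Named were all members, up to 3 list genes per direction past 2-fold with at least 10 pooled CPM, and the 3 nearest patterns of the 3 members with the largest ratios of cultured to in vivo oocytes (growth not considered).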

Additional observations from a re-analysis of the deposited data

How the results depend on the processing

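The number of members past 2-fold was small in every comparison and moved with several choices. In iPSC against in vivo GROs it was 1 and became 0 with a pseudocount of 2 CPM, with medians over oocytes, with a 4-fold rule and without in vivo GROs 17 to 24 (added after seeing the data), and 3 with a 1.5-fold rule. In iPSC against in vivo FGOs it was 1 and became 0 with a pseudocount of 2 CPM, without the doubted oocytes and with a 4-fold rule, and lay between 0 and 1 when single oocytes were left out. In gonad against in vivo GROs and in 6 dpp against in vivo FGOs it was 0 and became 2 and 1 with a 1.5-fold rule. In iPSC against gonad FGOs it was 0, became 1 with a pseudocount of 0.1 CPM and with a 1.5-fold rule, and lay between 0 and 1 when single oocytes were left out. In growth in vivo it was 3 and became 1 without in vivo GROs 17 to 24, 0 with a 4-fold rule, and 4, with Cat, without the doubted oocytes, without in vivo FGO 16 and with a pseudocount of 0.1 CPM. In growth of iPSC-derived oocytes it was 1 and became 2 with a pseudocount of 0.1 CPM, 3 with medians and with a 1.5-fold rule and 0 with a 4-fold rule. In growth of gonad-derived oocytes it was 1 and became 2 with a 1.5-fold rule and 0 with a 4-fold rule. TMM scaling and DESeq2 size factors moved none of these counts past 1.5 times and changed the sign of 3 of 99 ratios each, all of them short of 2-fold, and medians changed 10. No ratio past 2-fold changed sign under the alternatives run. Of the 23 named pairs of list gene and comparison, 19 were past 2-fold under every one of the scaling, pseudocount, median and doubted-oocyte alternatives, and Sesn1 in iPSC FGOs, Akr1b8 in iPSC GROs and Oxr1 in iPSC and gonad GROs were not. Depth limits Cat most, with a median of 2 to 18.5 reads per oocyte, and then Gclc. No paired analysis was possible because the labels tie no oocyte of one group to an oocyte of another and no comparison rests on a test.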
